A study of Homo sapiens with 171 samples.

Results

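The 8 genes described here encode the cyclins and cyclin-dependent kinases that carry a cell out of G1 and into S phase. They are the E cyclins CCNE1 and CCNE2, the D cyclins CCND1, CCND2 and CCND3, and the kinases CDK2, CDK4 and CDK6. They were picked by gene name and role, without a threshold on their values, and are 8 of 18417 genes with a probe set that the platform annotation assigns to 1 gene symbol. Each of the 8 had 1 such probe set. They lie on chromosomes 19 (CCNE1), 8 (CCNE2), 11 (CCND1), 12 (CCND2, CDK2 and CDK4), 6 (CCND3) and 7 (CDK6).

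The study exposed 46 established ovarian cancer cell lines to cisplatin, a platinum drug that crosslinks DNA, and set each line against its own untreated cells. The cisplatin arm received a GI50 dose, a growth-inhibiting dose that differs from line to line and whose values were not analysed here, for 48 h. RNA was measured on Affymetrix arrays in 82 cisplatin cultures and 85 untreated cultures, in 5 batches. Batches 1 to 3 held 18 lines with 3 cultures per arm, except HeyA8 with 2 cisplatin cultures, and batches 4 and 5 held lines with 1 culture per arm. Batch 5 also held 1 untreated culture each of PA-1 and SKOV-3 with no cisplatin culture there, and these stayed out of all changes. OVCA433 was in batches 2 and 4, and its all-line value is a weighted mean of both. Nothing in the labels states that numbered cultures of 1 line are independent. A within-line p-value therefore reflects only how far numbered cultures differ, which may be technical. That spread was estimated per gene from all 18 lines together, so 1 culture that stands apart widens it for every line. Where a culture number was left out, it was left out of all 18 lines at once, so the test rests on fewer cultures of every line. All values are log2 intensities, and a change is the cisplatin value minus the untreated value of the same line and batch, so that 1 means a doubling. The upper quartile over all probe sets was 7.82 to 8.08 on the 111 arrays of batches 1 to 3 and 5.80 to 6.59 on the 60 arrays of batches 4 and 5, so levels are set against each other within a batch and never between genes.

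Each array measured the RNA of a whole culture, so a shift in the share of cells in a cycle phase and a shift in RNA per cell cannot be told apart. The epithelial keratin gene KRT18 had a median of 12.3 in the 54 untreated cultures of batches 1 to 3. The epithelial adhesion gene EPCAM ran between 2.06 and 12.3 there. Medians of the other epithelial genes were 12.2 for KRT8, 9.38 for KRT7 and 8.801 for KRT19. They were 6.68 for CLDN3, 5.79 for CDH1 and 5.41 for CLDN4. Ovarian carcinoma genes had medians of 7.62 (PAX8), 6.19 (MSLN), 5.996 (WT1) and 5.099 (MUC16). Mesenchymal genes had medians of 11.3 (VIM), 10.3 (SPARC), 9.35 (FN1), 9.199 (CDH2) and 7.375 (ZEB1). Of the leukocyte genes in these cultures, CD3E reached at most 5.18 and CD14 at most 5.77, PTPRC had a median of 2.93 and reached 9.51 in OVCAR-10, LYZ had a median of 3.17 and reached 11.6 in OV90, and CD68 had a median of 7.93 and reached 11.1. Of the endothelial genes, VWF reached at most 5.40, PECAM1 had a median of 4.43 and reached 12.3 in TYK-nu, CDH5 reached 11.2 and KDR 9.63. In the 31 untreated cultures of batches 4 and 5, medians were 10.6 for EPCAM, 8.299 for KRT18, 7.47 for CDH1 and 4.795 for CLDN4. Medians there were 7.43 for PAX8, 4.63 for MUC16, 9.24 for VIM and 6.58 for SPARC. PTPRC reached 4.91 and PECAM1 8.36 in these batches.

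Some arrays stood apart from the rest. The cisplatin array of Hey, in batch 5, had an upper quartile over genes of 5.87, against 6.47 to 7.03 on the other arrays of batches 4 and 5. Its correlation with the untreated array of Hey was 0.834, the lowest of the single-culture lines. In batches 4 and 5, 28 of 29 cisplatin arrays correlated best with the untreated array of their own line. The exception was TOV-21G, with 0.974 for its own line and 0.979 for TOV-112D. In batches 1 to 3, 404 genes of OVCAR-10 cisplatin culture 1 lay at least 4-fold from the other cisplatin cultures of that line. The same count was 128 genes for OVCA420 cisplatin culture 3 and 89 genes for A2008 untreated culture 1. These 3 had the lowest best correlations with another culture of their own line, 0.959, 0.982 and 0.983. The count alone does not single them out: it was 115 and 89 for the other cisplatin cultures of OVCAR-10, whose comparison includes culture 1, and 108 for A2008 cisplatin culture 1, which had a best correlation of 0.991 and was kept. OVCAR-10 cisplatin culture 1 correlated better with a culture of DOV13B, at 0.961, than with any culture of its own line. The reason was not tested. Results that rest on Hey or on the 3 cultures with the lowest best correlations are given with and without them.

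D cyclins are made in response to growth signals and bind CDK4 or CDK6. These complexes begin to phosphorylate the retinoblastoma protein RB1, which releases E2F transcription factors, and E2F raises transcription of the E cyclins among many genes of DNA replication. E cyclins bind CDK2, complete the phosphorylation of RB1 and help to fire replication origins. CCNE1 is amplified in a share of high-grade serous ovarian carcinomas, and CDKN1A (p21), a target of p53, inhibits these kinases after DNA damage.

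Promoter sequences of 4 of the 8 genes were at hand from RefSeq (GRCh38.p14): CCNE1, CCND3, CDK4 and CDK6. The 250 bases before the start of CCNE1 and of CDK4 are shown because CCNE1 is a member whose untreated levels lay far apart (a range of 3.26 log2 units over the lines of batch 2), while those of CDK4 lay closer together (1.16 over the same lines). The first window is chr19:29811741-29811990 on the plus strand and the second is chr12:57752311-57752560 on the minus strand, both written 5′ to 3′ along the gene. Capitals mark GGGCGG, the core of the SP1 motif, on either strand.
CCNE1: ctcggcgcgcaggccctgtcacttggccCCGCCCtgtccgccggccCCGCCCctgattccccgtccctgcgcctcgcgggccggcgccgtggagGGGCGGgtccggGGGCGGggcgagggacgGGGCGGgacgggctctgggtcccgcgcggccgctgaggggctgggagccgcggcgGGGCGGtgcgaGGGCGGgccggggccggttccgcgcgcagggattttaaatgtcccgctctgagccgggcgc
CDK4: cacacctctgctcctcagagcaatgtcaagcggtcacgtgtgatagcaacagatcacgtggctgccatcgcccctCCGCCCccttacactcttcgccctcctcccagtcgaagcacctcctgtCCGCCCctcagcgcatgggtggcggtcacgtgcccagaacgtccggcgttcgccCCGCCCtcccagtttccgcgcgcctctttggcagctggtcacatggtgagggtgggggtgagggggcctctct
The window of CCNE1 held 7 matches and that of CDK4 held 3, with G or C at 81.2% and 65.6% of their bases. Of 35116 RefSeq windows of 300 bases, 44.954% held this motif. No window of these genes held the E2F core letters TTCCCGC, searched on both strands, or its variants, which read TTCGCGC in one form, then TTGCCGC in another form and TTGGCGC in the last. Of all windows, 12.966% held at least 1 of these. A match is a run of letters, not a measured binding site.

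Across the 46 lines, cisplatin moved the 8 genes little on average, and the lines went in different directions. CDK2, the partner of the E cyclins, was the 1 gene of the 8 that rose over all lines, by 0.21 ± 0.07 (SE, limma with Benjamini-Hochberg adjustment over all genes, adjusted p = 0.0404), with higher values in 33 of 46 lines. The same test called 9.70% of all genes, 4.98% higher and 4.72% lower, so 1 of 8 is near that background. CCNE2 had the largest mean change, 0.33 ± 0.12, higher in 32 of 46 lines, and did not pass (limma, adjusted p = 0.0705). Without Hey both passed (limma, 45 lines): CCNE2 by 0.39 (adjusted p = 0.0100) and CDK2 by 0.25 (adjusted p = 0.00307), where the background was 12.9% (7.70% higher and 5.19% lower). The call of CDK2 was lost without any one of 17 other lines, with a highest adjusted p of 0.0678 in limma. A two-sided sign-flip permutation test over lines gave p = 0.00451 for CDK2 and p = 0.0119 for CCNE2, unadjusted.

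The other 6 genes did not pass the all-line test. Their mean changes were 0.04 ± 0.06 for CCNE1, -0.05 ± 0.08 for CCND1, 0.16 ± 0.08 for CCND2, 0.13 ± 0.07 for CCND3, -0.03 ± 0.11 for CDK4 and 0.06 ± 0.09 for CDK6 (SE, n = 46 lines). The median over the 8 genes was 0.09, against -0.01 over all genes tested. CCND3 was higher in 34 lines and CDK6 in 22.

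**Figure D1:**
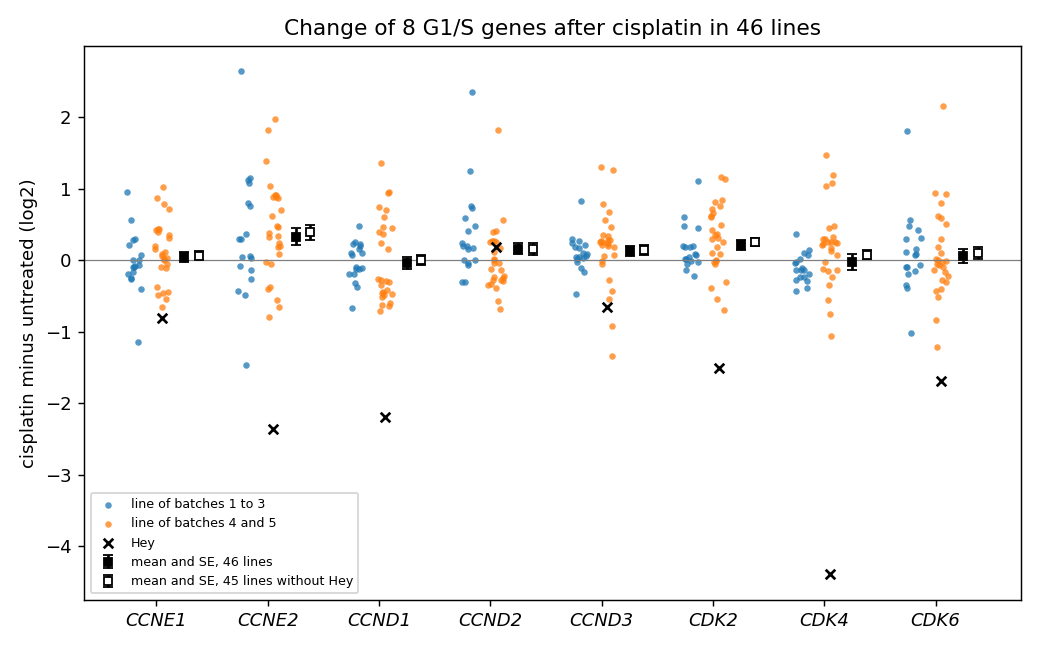
Change of each of the 8 genes (cisplatin minus untreated, log2 units), with 1 point per line: blue for batches 1 to 3, orange for batches 4 and 5, a cross for Hey, and squares with bars for the mean and SE over 46 lines and over 45 lines without Hey. CCNE2 spreads from -2.37 in Hey to 2.64 in FU-OV-1, and the cross of CDK4 lies at -4.40.

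CCNE2, the second cyclin E, passed in more replicated lines than any other of the 8 genes: 9 of 18, higher in 6 and lower in 3. In FU-OV-1, a line with high CCNE1, CCNE2 read 9.15, 9.23 and 9.36 in the cisplatin cultures and 6.82, 6.34 and 6.66 in the untreated cultures. All 3 cisplatin cultures lay above all 3 untreated cultures, and the difference was 6.24-fold (2.64 ± 0.13 on the log2 scale, limma, adjusted p = 3.85e-30).

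CCNE2 was also at least 2.10-fold higher in 3 further lines. OV90 had 8.46, 8.51 and 8.42 in cisplatin cultures and 7.21, 7.30 and 7.44 in untreated cultures, a 2.21-fold rise (limma, adjusted p = 1.24e-10). OVCAR-8 had 9.89, 10.54 and 10.16 in cisplatin cultures and 9.02, 9.04 and 9.18 in untreated cultures, a 2.17-fold rise. The arms did not overlap in either line. A2780 had 6.56, 6.62 and 6.62 in cisplatin cultures and 5.36, 5.71 and 5.52 in untreated cultures, a 2.10-fold rise in the line with the lowest untreated level of batch 1. PA-1 and OVCA429 rose by 0.79 and 0.76 on the log2 scale.

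CCNE2 fell in HeyA8, which had the highest untreated level of batch 1. The 2 cisplatin cultures read 8.11 and 7.68 and the 3 untreated cultures 9.44, 9.46 and 9.17, with no overlap, and the level fell to 0.363 of that in untreated cells (-1.46 ± 0.14, limma, adjusted p = 3.34e-13). Smaller falls passed in IGROV-1 (-0.43, limma, adjusted p = 0.0220) and DOV13B (-0.49, limma, adjusted p = 0.0216). Both calls were lost with 1 or more of the culture numbers left out of all lines in turn. Among lines with 1 culture per arm, where no test was made within a line, OVCAR-3 read 9.73 with cisplatin and 7.76 untreated, and OAW28 read 10.26 and 8.44. Hey, whose cisplatin array stands apart, read 6.61 with cisplatin and 8.98 untreated.

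**Figure D2:**
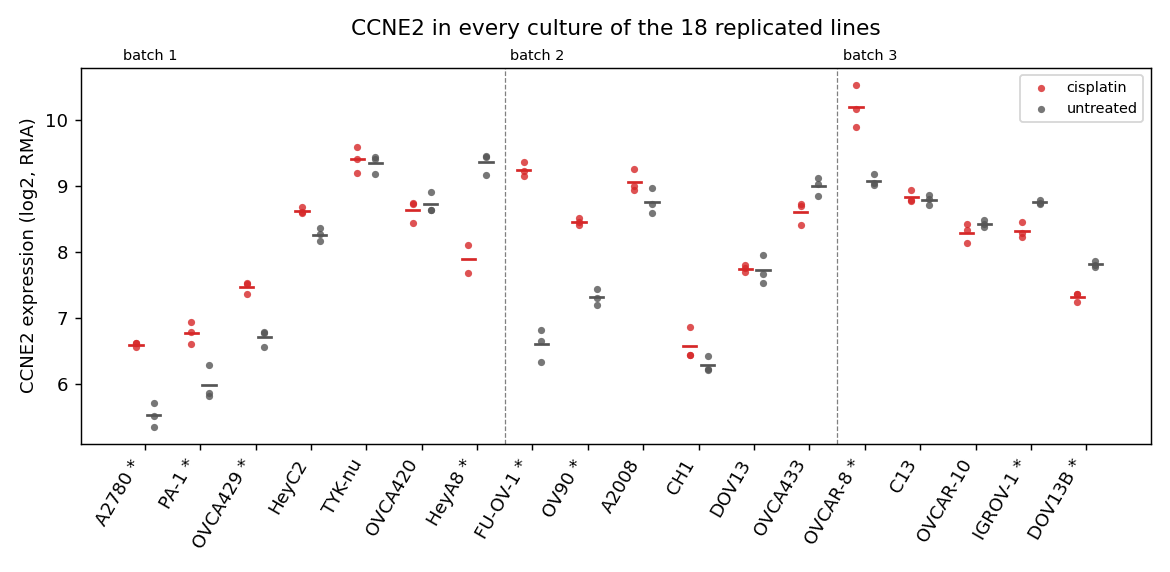
CCNE2 level (log2) in each culture of the 18 replicated lines by batch, with cisplatin cultures in red left of untreated cultures in grey, short lines for the mean, and a star for a limma adjusted p under 0.05. The cisplatin cultures of FU-OV-1 sit between 9.15 and 9.36, above its untreated cultures at 6.34 to 6.82, while those of HeyA8 at 7.68 and 8.11 sit below its untreated cultures.

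CCNE1, the first cyclin E and partner of CDK2, changed in 2 replicated lines. In FU-OV-1 it read 11.76, 11.91 and 11.97 with cisplatin and 10.92, 10.91 and 10.95 untreated, with no overlap, a 1.94-fold rise (0.95 ± 0.23, limma, adjusted p = 0.000589). In A2008 the cisplatin cultures read 7.61, 7.80 and 7.71 and the untreated cultures 10.66, 7.93 and 7.94, so 1 untreated culture lay far above the others. That culture gave the call of -1.14 ± 0.23 (limma, adjusted p = 0.000613), and the change was -0.23 (limma, adjusted p = 0.240) without the 3 cultures that stand apart.

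Of the 10 nearest measured genes around CCNE1 on chromosome 19, 7 were higher in A2008 untreated culture 1 than in both other untreated cultures. The same count was not made over all genes, so these 7 of 10 stand without a background. PLEKHF1 read 8.94 in untreated culture 1 and 6.04 and 6.13 in the other untreated cultures. URI1 read 11.49 in untreated culture 1 and 10.34 and 10.09 in the others. POP4 read 10.64 there and 9.59 and 9.20 in the others. VSTM2B, ZNF536 and TSHZ3 were not higher there, and DPY19L3 read 6.83 there and 6.33 and 6.74 in the others. Whether copy number differs between these cultures was not tested.

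Among lines with 1 culture per arm, OAW42 had the largest difference in CCNE1, with 7.59 in cisplatin cells and 6.56 in untreated cells. Without the 3 cultures that stand apart, CCNE1 also passed in OVCA429 (0.57, limma, adjusted p = 1.24e-05), OVCAR-8 (0.28, limma, adjusted p = 0.0261) and OVCA420 (-0.35, limma, adjusted p = 0.0186). The changes in OVCA429 and OVCAR-8 were the same with all cultures, and only the pooled SE fell, from 0.23 to 0.09. In OVCA420, which holds 1 of the 3 cultures, the change with all cultures was -0.40.

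CCND1, the cyclin D most often linked to growth factor signals, changed in 3 lines by less than a doubling. CH1 read 11.29, 11.26 and 11.23 with cisplatin and 10.74, 10.76 and 10.85 untreated (0.48 ± 0.10, limma, adjusted p = 0.00153). OVCAR-8 read 10.27, 10.01 and 10.01 with cisplatin and 10.85, 10.77 and 10.68 untreated (-0.67, limma, adjusted p = 6.2e-07). The arms did not overlap in either line, and the direction was opposite. IGROV-1 fell by 0.38 on the log2 scale (limma, adjusted p = 0.0121). The calls in CH1 and IGROV-1 were lost when culture number 2 was left out of all lines, with limma adjusted p of 0.171 and 0.571. With 1 number left out, the change ran from 0.44 to 0.52 in CH1 and from -0.47 to -0.28 in IGROV-1. Without the 3 cultures that stand apart, CCND1 also passed in OV90 (-0.32, limma, adjusted p = 0.0170), where the change itself was the same with all cultures. In single cultures, A2780cisR read 7.99 with cisplatin and 6.63 untreated.

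CCND2, a cyclin D that is silent in many cell types, rose in 2 replicated lines, HeyA8 and HeyC2. HeyA8 read 9.83 and 10.0002 with cisplatin and 7.63, 7.54 and 7.54 untreated, a 5.09-fold rise (2.35 ± 0.38, limma, adjusted p = 2.04e-06). HeyC2 read 7.60, 7.38 and 7.26 with cisplatin and 6.34, 6.57 and 5.62 untreated, a 2.36-fold rise (limma, adjusted p = 0.0167). Neither line's arms overlapped. The call in HeyC2 was lost when culture number 1 or 2 was left out of all lines, where its change ran from 1.04 to 1.45 with 1 number left out. Without the 3 cultures that stand apart, CCND2 also passed in OVCA433 (0.75, limma, adjusted p = 0.00488) and DOV13 (0.59, limma, adjusted p = 0.0382). The changes in both lines were the same with all cultures, and only the pooled SE fell, from 0.34 to 0.18. In OVCA420, the line of 1 of the 3 cultures, the change was 0.76 with that culture and -0.52 without it, past the threshold in neither case. Hey, with 1 culture per arm, changed by 0.19. DOV13A, with 1 culture per arm, read 7.58 with cisplatin and 5.76 untreated.

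CCND3, the third cyclin D, rose in FU-OV-1 and fell in PA-1. FU-OV-1 read 8.87, 9.14 and 9.15 with cisplatin and 8.13, 8.23 and 8.34 untreated (0.82 ± 0.11, limma, adjusted p = 6.15e-09). PA-1 read 7.44, 7.11 and 6.97 with cisplatin and 7.60, 7.78 and 7.58 untreated (-0.48, limma, adjusted p = 0.000894). The arms did not overlap in either line. The call in PA-1 was lost when culture number 2 or 3 was left out of all lines, and its change ran from -0.63 to -0.38 with 1 number left out. Caov-3, with 1 culture per arm, read 7.24 with cisplatin and 8.58 untreated.

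CDK2 rose in 4 replicated lines and fell in none. FU-OV-1 read 10.68, 10.84 and 10.85 with cisplatin and 9.66, 9.65 and 9.73 untreated (1.11 ± 0.09, limma, adjusted p = 1.17e-17). OVCAR-8 read 10.41, 10.44 and 10.42 with cisplatin and 9.94, 9.79 and 9.73 untreated (0.60, limma, adjusted p = 2.82e-07). No cisplatin culture of these lines overlapped with an untreated one. OVCA420 rose by 0.48 (limma, adjusted p = 3.95e-05), with cisplatin culture 3 among those that stand apart, and OV90 rose by 0.45 (limma, adjusted p = 0.000391). All 4 calls held without each culture number in turn and without the 3 cultures.

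CDK4, which binds D cyclins, moved little in replicated lines. It rose by 0.36 in FU-OV-1 (limma, adjusted p = 0.00389) and fell in C13 (-0.39, limma, adjusted p = 0.00431) and PA-1 (-0.43, limma, adjusted p = 0.000989). PA-1 read 10.96, 10.44 and 10.38 with cisplatin and 11.05, 11.004 and 11.03 untreated, with no overlap. Each of the 3 calls was lost with 1 or 2 of the culture numbers left out of all lines in turn. Hey gave the widest difference, 6.33 with cisplatin and 10.73 untreated, and the mean over lines was 0.07 without it.

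CDK6, the other partner of D cyclins, passed only in OVCAR-10 among the 18 lines, and there on 1 culture. OVCAR-10 read 9.61, 3.55 and 3.56 with cisplatin and 3.44, 3.27 and 4.60 untreated (1.81 ± 0.48, limma, adjusted p = 0.0188). Without the 3 cultures that stand apart, the change there was -0.21 (limma, adjusted p = 0.941). CDK6 then passed in FU-OV-1 (-1.01, limma, adjusted p = 6.12e-08), C13 (0.56, limma, adjusted p = 0.00451), PA-1 (0.48, limma, adjusted p = 0.0125) and OVCAR-8 (0.42, limma, adjusted p = 0.0446). None of these lines holds a removed culture. Their changes were the same with all cultures, and only the pooled SE fell, from 0.48 to 0.15. OAW42, with 1 culture per arm, read 6.87 with cisplatin and 4.71 untreated.

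Over the 18 replicated lines, 26 of 144 combinations of gene and line passed, 17 higher and 9 lower, against a background of 8.23% of all genes and lines (4.55% higher and 3.68% lower). Of these, 15 held without each culture number in turn and without the 3 cultures that stand apart. FU-OV-1 had 5 of the 8 genes called, against 27.8% of all genes called in that line. OVCAR-8 and PA-1 had 3 each, against 13.4% and 22.8% of all genes. DOV13, OVCA433 and TYK-nu had none, against 3.31%, 2.68% and 0.0760% of all genes. HeyA8, IGROV-1 and OV90 had 2 each, against 13.7%, 6.96% and 2.92%. The lines with 1 gene called had backgrounds of 17.7% in C13, 11.5% in OVCA420, 5.15% in A2008, 5.13% in HeyC2, 4.18% in OVCAR-10, 3.90% in OVCA429, 3.53% in A2780, 1.98% in CH1 and 1.46% in DOV13B. With the 3 cultures left out, 35 combinations passed, 24 of them shared with the 26, against 9.24% of all genes and lines.

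**Figure D3:**
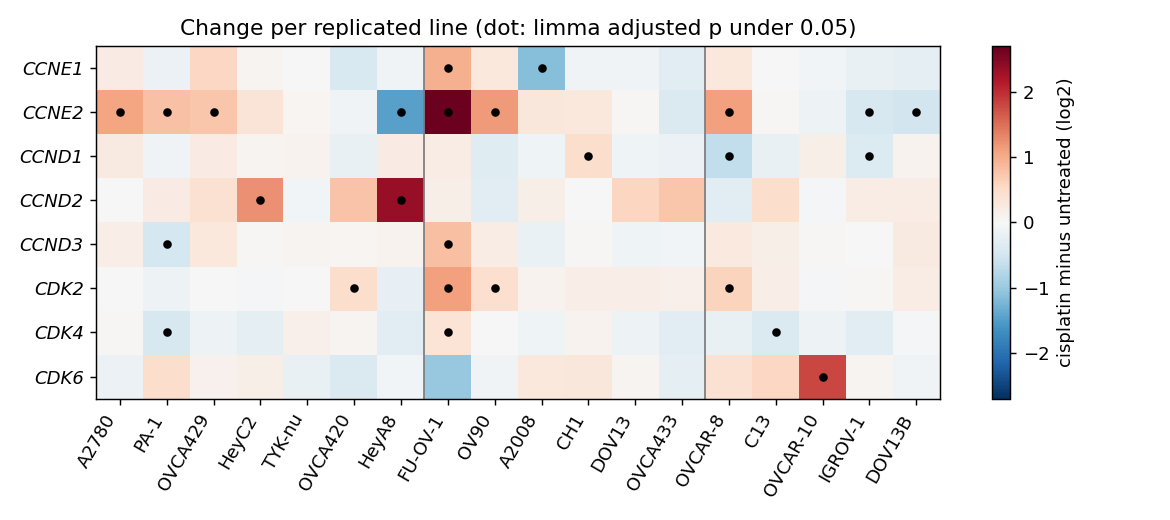
Change of the 8 genes (cisplatin minus untreated, log2 units) in each of the 18 replicated lines as a colour map, red higher and blue lower, with a dot for a limma adjusted p under 0.05 and vertical lines between batches. FU-OV-1 is high for CCNE2 at 2.64, CDK2 at 1.11 and CCNE1 at 0.95, and HeyA8 pairs a low CCNE2 at -1.46 with a high CCND2 at 2.35.

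The response differed between the 18 replicated lines for 7 of the 8 genes (limma F test over line-by-treatment terms), a test that called 51.0% of all genes. CCNE2 had the largest F of the 8, 46.2 (limma, adjusted p = 2.97e-29), followed by CDK2 with 12.3. CDK6 did not pass (limma, adjusted p = 0.279), and passed without the 3 cultures that stand apart (limma, adjusted p = 2.65e-07), where 8 of 8 genes passed and 54.3% of all genes did.

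The 3 pairs of lines related by name were compared directly. HeyA8 and HeyC2 are both in batch 1, while A2008 and DOV13 are in batch 2 and C13 and DOV13B in batch 3. For pairs from different batches, a difference between lines and one between batches cannot be told apart. The change of CCNE2 was 1.82 ± 0.19 higher in HeyC2 than in HeyA8 (limma, adjusted p = 4.17e-11), in a comparison that called 0.755% of all genes. The change of CCNE1 was 1.14 ± 0.32 higher in C13 than in A2008 (limma, adjusted p = 0.0237, background 4.82%), and 0.24 (limma, adjusted p = 0.343) without the 3 cultures, of which 1 is an A2008 culture. DOV13B and DOV13 had no gene of the 8 past the threshold, against 0.0814% of all genes. The change of CCND2 in HeyC2 minus that in HeyA8 was -1.11 with and without the 3 cultures, none of which is from these lines. It passed only without them (limma, adjusted p = 0.0145). The widest difference between DOV13B and DOV13 was -0.52 ± 0.18 for CCNE2 (limma, adjusted p = 0.198). PA-1 and CH1, whose names differ, were not compared, though correlations between their cultures reached 0.991. The highest was 0.987 for DOV13 and DOV13B, 0.982 for HeyA8 and HeyC2 and 0.970 for A2008 and C13. The all-line tests, also those with 1 line per family of related names, counted PA-1 and CH1 as separate lines.

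Members of 1 family were compared within lines in 5 pairs by a two-sided sign-flip permutation test, adjusted over the 5. CCNE2 changed by 0.29 ± 0.10 more than CCNE1, in 32 of 46 lines (permutation, adjusted p = 0.0448), and by 0.33 without Hey (permutation, adjusted p = 0.00720). The call was lost without batch 4 (permutation, adjusted p = 0.0661) and in batches 1 to 3 alone (permutation, adjusted p = 0.150). CCND1 minus CCND3 was -0.17 ± 0.07 (permutation, adjusted p = 0.0565), CCND2 minus CCND1 was 0.20 ± 0.10 (permutation, adjusted p = 0.0962; in batches 1 to 3 alone 0.40, adjusted p = 0.0481), CCND2 minus CCND3 was 0.03 ± 0.11 and CDK6 minus CDK4 was 0.08 ± 0.13. Each difference is relative to the probe sets' own untreated values and not to a level.

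The difference in change between batches 4 and 5 and batches 1 to 3 passed for no gene of the 8, by limma across lines. It passed for 0.0814% of all genes. The widest difference was in CCND2, with a mean change of 0.02 in the 28 lines of batches 4 and 5 and 0.38 in the 18 lines of batches 1 to 3 (limma, unadjusted p = 0.0242, adjusted p = 0.381). At an unadjusted p under 0.05 it was the 1 gene of the 8. The SE of the difference ran from 0.13 for CCNE1 to 0.25 for CCNE2, so differences of that size cannot be told from none.

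Untreated levels differed between lines of a batch for all 8 genes (limma F test), as for 86.8% of all genes. CCNE1 was highest in FU-OV-1 in batch 2, at 10.93 ± 0.02 (SD, n = 3 cultures), with A2008 next at 8.84 ± 1.57. That second place rests on A2008 culture 1: its other cultures, at 7.93 and 7.94, lay below CH1 at 8.46, OVCA433 at 8.43 and OV90 at 8.02. In batch 4 it was highest in TAYA at 9.09 and lowest in JHOS-2 at 5.05, and in batch 5 highest in OVCAR-3 at 8.78. CCNE2 in batch 1 ran from 9.36 in HeyA8 and 9.35 in TYK-nu down to 5.53 in A2780.

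CCND2 split the lines most. In batch 1 it was 12.90 in A2780, 11.22 in PA-1 and 10.52 in OVCA429, against 7.57 in HeyA8, 6.18 in HeyC2, 5.48 in OVCA420 and 5.13 in TYK-nu. In batch 3 it was 12.81 in OVCAR-10, 11.25 in C13 and 11.23 in DOV13B, against 5.62 in OVCAR-8 and 5.36 in IGROV-1. In batch 4, 9 of 12 lines lay within 1 log2 unit of the lowest, and A2780cisR stood highest at 9.28.

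CDK6 levels stood far apart in batches 1 and 3 and were graded in batches 4 and 5. In batch 1, A2780 read 5.10 and the next line, PA-1, 8.85. In batch 3, OVCAR-10 at 3.77 and IGROV-1 at 3.67 lay far below DOV13B at 10.48. CCND1 in batch 2 ran from 11.60 in OVCA433 to 9.59 in FU-OV-1. CDK6 levels in batch 4 ran from 8.43 in OVCA433 through 6.07 in ovary1847 to 3.00 in SKOV-4. In batch 5, CDK6 ran from 8.40 in DOV13A through 6.56 in PA-1 to 3.67 in OVK-18. CDK4 had a range of 0.46, 1.16, 0.92, 1.66 and 1.66 over the lines of batches 1 to 5.

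Many neighbours in these orders did not differ beyond the spread pooled over the 18 replicated lines, with all cultures kept. Without the 3 cultures that stand apart, the SE of most within-line changes fell from 0.23 to 0.09 for CCNE1. For CDK6 it fell from 0.48 to 0.15. The steps were not counted again without these cultures, and no share over all genes was computed for them. Of 15 steps between adjacent replicated lines, limma called 11 for CCNE2, 10 for CCND1, 9 for CDK2, 8 for CCND2, 7 for CCND3, 5 for CCNE1, and 3 each for CDK4 and CDK6.

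**Figure D4:**
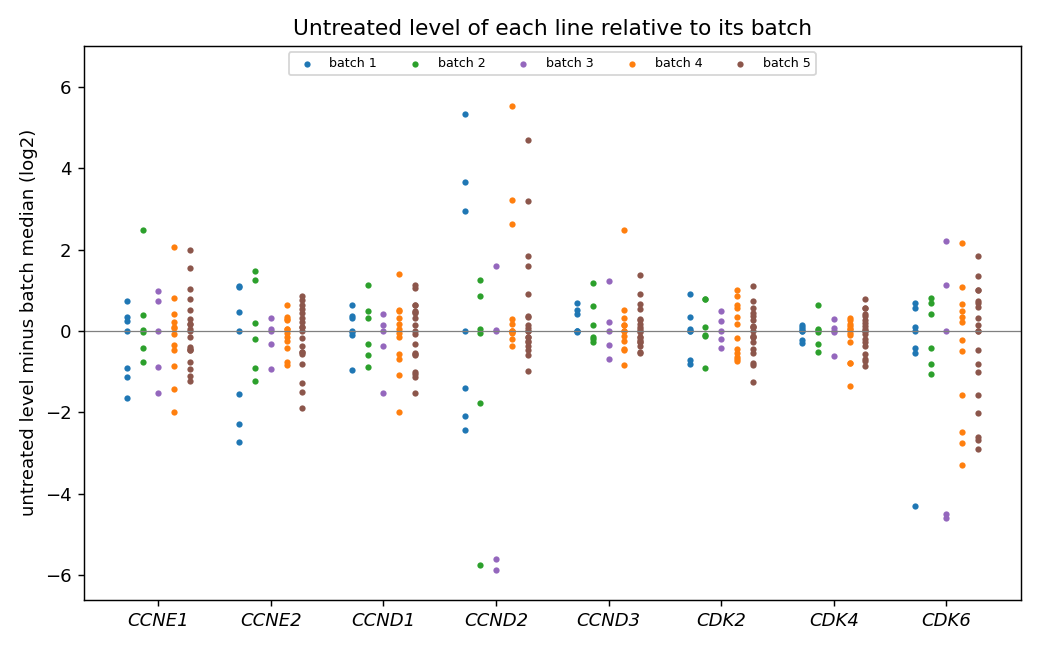
Untreated level of each line minus the median of its batch (log2 units), for each of the 8 genes, with 1 point per line and a colour per batch. Over the lines of batches 1, 2 and 3, CCND2 spans 7.77, 6.99 and 7.45 log2 units and CDK4 spans 0.46, 1.16 and 0.92.

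Across the 46 lines the changes of some members went together. These correlations are descriptions: the 2 genes of a pair share each line's arrays and RNA. Pearson's r between the changes of CCNE2 and CDK2 was 0.67, and 0.56 without Hey. For CCND1 and CDK4 it was 0.79 over all lines, 0.70 without Hey and 0.40 in batches 1 to 3. CCNE2 and CCND2 ran opposite, with r of -0.34, -0.56 in batches 1 to 3 and -0.17 in batches 4 and 5.

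The change of CCNE2 followed the mean change of 20 E2F target genes of the G1/S step, with r of 0.76 over 46 lines and 0.68 without Hey. The list mean was 0.58 in FU-OV-1, 0.35 in OV90 and 0.03 in OVCAR-8, against -0.85 in HeyA8. So OVCAR-8 raised CCNE2 while the list mean stayed near 0. In PA-1 CCNE2 rose by 0.79 with a list mean of -0.23. HeyC2 had a CCNE2 change of 0.36, not past the threshold, with a list mean of -0.39. For CDK2 and the same list r was 0.70, and 0.54 without Hey, and for CCND2 it was -0.37, and -0.50 without Hey.

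**Figure D5:**
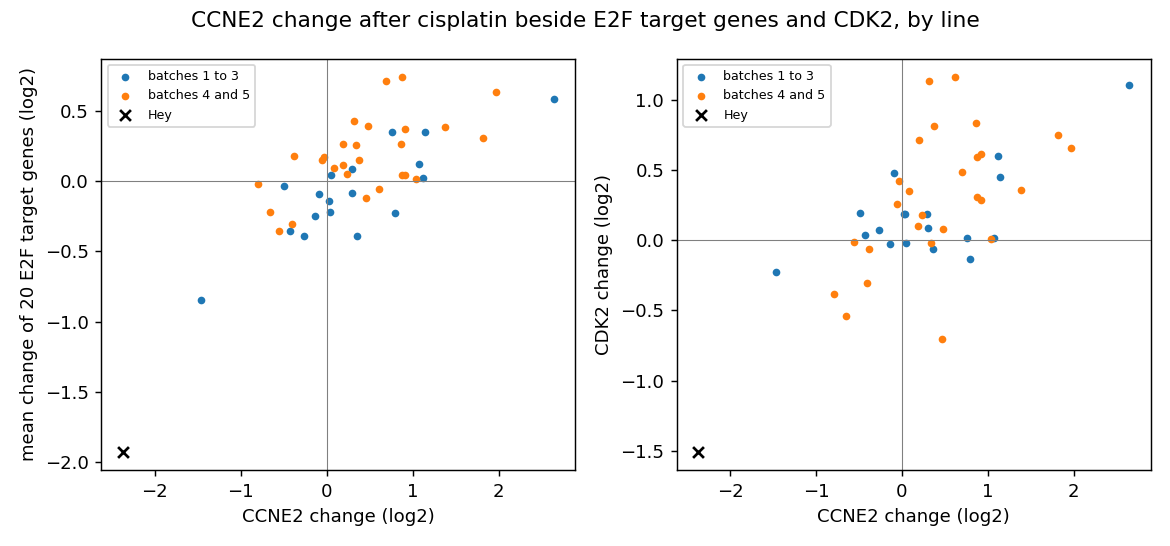
Mean change of 20 E2F target genes (left) and change of CDK2 (right) against the change of CCNE2, all cisplatin minus untreated in log2 units, with 1 point per line, blue for batches 1 to 3 and orange for batches 4 and 5. The cross is Hey, whose cisplatin array stands apart, with CCNE2 at -2.37, the list mean at -1.93 and CDK2 at -1.51.

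The genes whose change over lines was most like that of CCNE2 were CLSPN, a replication checkpoint gene, MCM6, a subunit of the replicative helicase, and FEN1, a nuclease of lagging-strand synthesis, each with r of 0.84 (46 lines). Without Hey the same 3 genes led, with r of 0.79, 0.79 and 0.78. For CDK2 they were UFD1 at 0.86, TUBG1 at 0.83 and MRPL18 at 0.80, and without Hey TUBG1 at 0.81, UFD1 at 0.81 and LRRC42 at 0.75. For CDK4 they were KIAA1191 at 0.93, PRPF8 at 0.93 and UBE2Z at 0.92, with r of 0.18, 0.16 and 0.55 in batches 1 to 3. Without Hey, CDK4 had other genes in front: STOML2 at 0.90, POLD2 at 0.89 and TIMM50 at 0.88. The untreated level of CDK6 was most like those of PLEK2 at 0.77, ETS1 at 0.75 and CDCA7L at 0.75, and that of CCNE2 like SHCBP1 at 0.74.

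Of the 10 nearest measured genes around each member, those with an untreated level at r of at least 0.5 were counted. There were 2 around CDK6 and 1 each around CCNE1, CCND2, CCND3 and CDK4. URI1, beside CCNE1, had r of 0.58 with it and ranked 5 among all genes, where 0.212% of genes reached an r of 0.5. SAMD9 and SAMD9L, near CDK6, had r of 0.64 and 0.50, where 1.102% of genes reached 0.5. PARP11 near CCND2 had r of 0.51 (0.174% of genes), BYSL near CCND3 0.52 (0.157%) and TSFM near CDK4 0.54 (0.749%). CCNE2, CCND1 and CDK2 had no neighbour at 0.5.

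Lists of genes around these kinases were read against the 9.70% of all genes called over the 46 lines, 4.98% higher and 4.72% lower. Of 6 measured CDK inhibitors, 1 rose over the 46 lines: CDKN1A, by 0.63 (limma, adjusted p = 8.49e-07), higher in 39 lines. Of 13 genes of the RB family, E2F factors and their DP partners, 3 rose and 1 fell. E2F7 (0.54) and E2F8 (0.37), repressors of the family, and E2F2 (0.21), an activator, rose, and E2F5 (-0.22) fell. The list's median was 0.01.

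Of 8 enzymes that activate or inhibit the CDKs, 2 rose: CDC25A, a phosphatase that activates CDK2, by 0.29, and PKMYT1, a kinase that inhibits CDK1, by 0.16. Of 12 genes in the turnover of these cyclins and inhibitors, FBXW7, the substrate receptor that marks cyclin E for destruction, rose by 0.29, while SKP2 (-0.29), which marks p27, and USP28 (-0.20) fell. None of 6 measured genes for cyclins and the kinase of S, G2 and M phase passed, with CCNB1 nearest at -0.21 (limma, adjusted p = 0.0515).

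Of 20 E2F targets, CDT1 rose by 0.15 and MCM6 fell by 0.30 over all lines, a share near the 9.70% of all genes. Without Hey, 6 rose, among them CDC6 at 0.33 and RRM2 at 0.23, and 1 fell, where 7.70% of all genes were higher and 5.19% lower. Of 20 mitotic genes, PLK1 (-0.38) and KIF20A (-0.39) fell, a share near that background. Of 20 replication-dependent histone genes 14 fell, led by H1-3 at -1.08 and H2BC14 at -0.88, though near-identical copies make single histone genes uncertain.

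Of 23 p53 targets, 19 rose and none fell, against 4.98% of all genes higher, with a list median of 0.31 against -0.01 over all genes. GDF15 rose by 0.68, PMAIP1 by 0.62 and DDB2 by 0.53. Of 16 genes in the mitogen pathway upstream of cyclin D, JUN (0.49), FOS (0.38), ETS1 (0.29) and MAP2K1 (0.14) rose. Of the cell type markers, the epithelial genes KRT19 (-0.23) and CLDN3 (-0.19) fell, 2 of 8, and the leukocyte genes LYZ (0.35) and CD68 (0.26) rose, 2 of 5, while the ovarian carcinoma, mesenchymal and endothelial lists had none. Their part in the results above was not tested.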

How the data were processed

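The authors deposited log2 intensities. The tool that the submitters' processing notes name is RMA, and its version is not given in the sources used here. The table held 33297 probe sets on 171 arrays: 19460 had 1 gene symbol, 1754 several and 12083 are unnamed here, and 769 genes had several probe sets, of which the one with the highest mean was kept. Repeat arrays of a culture (4) were averaged. Members and lists were chosen with earlier results of these data known, and the genes named beyond the members are list members past the threshold, and the 3 most alike genes by Pearson's r.

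The all-line test took 1 difference per line (46 lines, 165 cultures, limma 3.58.1 in R 4.3.3). Within-line tests fitted the 107 cultures of the 18 replicated lines with 71 residual degrees of freedom. P-values were adjusted over all genes by Benjamini-Hochberg at 0.05, and sign-flip permutation tests drew 100000 resamples. The fits were tested on simulated data. Alternatives were single batches, left-out lines and cultures, a replicate block, quantile normalization and a fold minimum. Leaving out Hey and the 3 cultures apart was chosen after seeing the data. The number of arrays limits the precision. Equal culture numbers did not pair cultures: 7 of 53 pairs had r above 0.1.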

Additional observations from a re-analysis of the deposited data

Results flagged for a closer look

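Some lines lay far from the others of their batch. FU-OV-1 had an untreated CCNE1 level of 10.93, with A2008 next at 8.84 in batch 2 (on 1 culture that stands apart, without which CH1 is next at 8.46), and A2780 an untreated CDK6 level of 5.10, with PA-1 next at 8.85 in batch 1. The change of CDK2 was 1.11 in FU-OV-1, with 0.45 next in batch 2, and 0.48 in OVCA420, with 0.02 next in batch 1. The change of CCND3 was -0.48 in PA-1, with 0.04 next in batch 1. These are 5 of 48 groups examined, and chance gives about 1 in 20.

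The response differed between lines by a test of the difference itself. The change of CCNE2 was 1.82 higher in HeyC2 than in HeyA8. That of CCNE1 was 1.14 higher in C13 than in A2008, lines of different batches. The CCNE1 difference was 0.24 (limma, adjusted p = 0.343) without the 3 cultures that stand apart. Over the 18 replicated lines, limma's F was 46.2 for CCNE2, 12.3 for CDK2, 7.24 for CCND1, 5.36 for CCND3, 3.89 for CDK4, 3.53 for CCNE1 and 3.01 for CCND2.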

How the results depend on the processing

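Over all lines, 1 of the 8 genes passed. The count was 0 without batch 4, in batches 1 to 3 alone, in batches 4 and 5 alone and in each of the 5 batches alone, and 2 with 1 line per family of related names, after quantile normalization, without Hey, and without batch 4 and Hey. Leaving out 1 line at a time gave 0 to 2. CDK2 did not pass without OVCA420, OV90, FU-OV-1, OVCAR-8, Caov-2, Caov-3, JHOS-2, JHOS-3, OAW28, OAW42, OV56, OVCAR-3, OVCA432, OVCAR-2, OVCAR-5, RMG-II or SKOV-8, and CCNE2 passed without HeyA8 or Hey. Mean changes near 0 turned sign. CDK6 was -0.055 without batch 4, -0.00293 in batches 4 and 5, -0.010 in batch 1, -0.11 in batch 2, -0.23 in batch 5 and -0.00632 without batch 4 and Hey. CCNE1 was -0.023 in batches 1 to 3, -0.061 in batch 2 and -0.048 in batch 3. CDK4 was 0.019 in batches 4 and 5, 0.21 in batch 4, 0.051 with 1 line per family, 0.011 after quantile normalization, 0.068 without Hey and 0.012 without batch 4 and Hey. CCND1 was 0.081 in batch 1, 0.0016 without Hey and 0.039 without batch 4 and Hey. With 1 line left out, CCND1 ran from -0.078 to 0.0016 and CDK4 from -0.063 to 0.068. Within lines, 26 calls became 13 with a minimum change of 1.2-fold and 19 to 30 without 1 culture number, and CDK6 in OVCAR-10 was -0.38 without culture 1, up to 3.23 without another culture number, and -0.21 without the 3 cultures apart. The line-difference test called 4 to 7 genes and the related-line test 1 to 2 without 1 culture number. With the culture number as a replicate block, 26 calls were made, the same 26. The batch-set difference of CCND1 was 0.00196 without batch 4 and 0.044 without Hey, and that of CDK4 -0.00275 without batch 4. The pair comparison called 0 of 5 without batch 4. Where alternatives use fewer lines or cultures, fewer samples enter the test, and the cause of the other changes was not tested. The settings without Hey or the 3 cultures were chosen after seeing the data.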
